A study of Mus musculus with 3 samples.

Results

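The translation initiation factor genes are the protein-coding genes whose symbol starts with Eif, without the eIF2 kinase genes Eif2ak1 to Eif2ak4 and the Y-linked Eif2s3y. This rule, which uses names and gene types only, found 50 genes among 50600 genes counted, of which 21764 are protein-coding. They were measured in 3 RNA-seq libraries of 1 group, T-helper 1 (Th1) cells of C57BL/6NJ mice, primary T cells differentiated in culture. The labels call the libraries biological replicates from separate cell samples, give the same donor entry for all, and leave age, sex and treatment open. Since separate animals are not stated, p-values between libraries cover the spread of these samples alone, and part of it may be technical. The sample titles speak of total RNA, but the linked protocol prepares polyA-containing RNA.

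Initiation factors bring the small ribosomal subunit, the initiator methionine tRNA and the mRNA together. eIF2 carries the initiator tRNA, eIF2B recharges eIF2 with GTP, eIF3 holds the small subunit, and eIF4F binds the cap of the mRNA and opens its leader. When T cells are activated they raise protein synthesis, and the kinase mTOR then frees the cap-binding protein eIF4E from its inhibitors, the eIF4E-binding proteins.

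Total counts were 3553547, 2945353 and 3369468 read pairs in replicates 1, 2 and 3, and all values per library below are in this order. Levels are in TPM, counts divided by exon length and scaled to the same sum in every library, with the mean ± SD over libraries (n = 3). A gene counts as detected when every library has it at 1 TPM or above. All 7 T cell markers were detected, with summed levels of 422 to 796 TPM over the libraries, among them Cd4 at 105 ± 29.7 TPM. Of 5 Th1 markers 3 were detected, with Tbx21, the gene of the factor T-bet, at 15, 11 and 8 counts and Ifng, the gene of interferon gamma, at 2, 2 and 1. The Th1 markers summed to 23 to 24.1 TPM, most of it Il12rb2, which lies opposite Serbp1. Of other cell types, 1 of 5 B cell markers was detected (sum 7.23 to 8.14 TPM), 1 of 2 CD8 markers (7.87 to 13.1 TPM) and 1 of 4 erythroid markers (4.6 to 6.68 TPM). Of 5 macrophage markers 2 were detected (163 to 169 TPM), nearly all of it Csf1r at 160 ± 6.06 TPM, which lies opposite Hmgxb3. Ms4a1, Lyz2 and Hba-a1 had 0 counts in each library. The part of these cells in the results was not tested. In bulk RNA, fewer cells of a type and less RNA per cell cannot be told apart.

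A pair of features of the libraries touch the results. First, the read pairs were counted on 1 strand (strand option 1, per the file headers), and genes that share exon bases with an opposite-strand gene, called overlapped here, made up 16.2% of the genes and held 68%, 77.5% and 70.3% of the counts. Whether the option matched the strand of the library was not tested. The levels below are therefore levels of read pairs assigned to a gene under this option, and how far they follow its mRNA is not known. Second, the libraries differed in sex-linked RNA. The Y-linked Eif2s3y had 58, 1 and 77 counts and Ddx3y had 59, 0 and 85. Tsix, which shares exon bases with Xist on the opposite strand, had 1695, 5124 and 6 counts, and Xist had 444, 510 and 1. Replicate 3 thus had Y-linked counts almost without Xist or Tsix, replicate 2 the opposite, and replicate 1 had both, although the labels name the same donor for all.

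Of the 50 initiation factor genes, 47 were detected, against 41.2% of protein-coding genes. Their median level was 47.7 ± 10.8 TPM, against 0.386 ± 0.0703 TPM over protein-coding genes. Together they held 36208, 21609 and 31427 counts, or 0.895% ± 0.146 of all counts. The level was uneven: the 10 highest genes held 54.8% ± 0.914 of the summed TPM. The genes lie on 18 chromosomes, 28 of them on the plus strand. Only 3 were not detected, and all 3 are paralogs of genes that were: Eif4e3 had 6, 1 and 5 counts, and Eif4e1b and Eif4ebp3 had 0 counts in each library. For Eif4e1b, known mainly from oocytes, the upper limit of 3 counts that goes with a 0 equals 0.7, 0.761 and 0.712 TPM. Such limits cover counting error only.

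**Figure D1:**
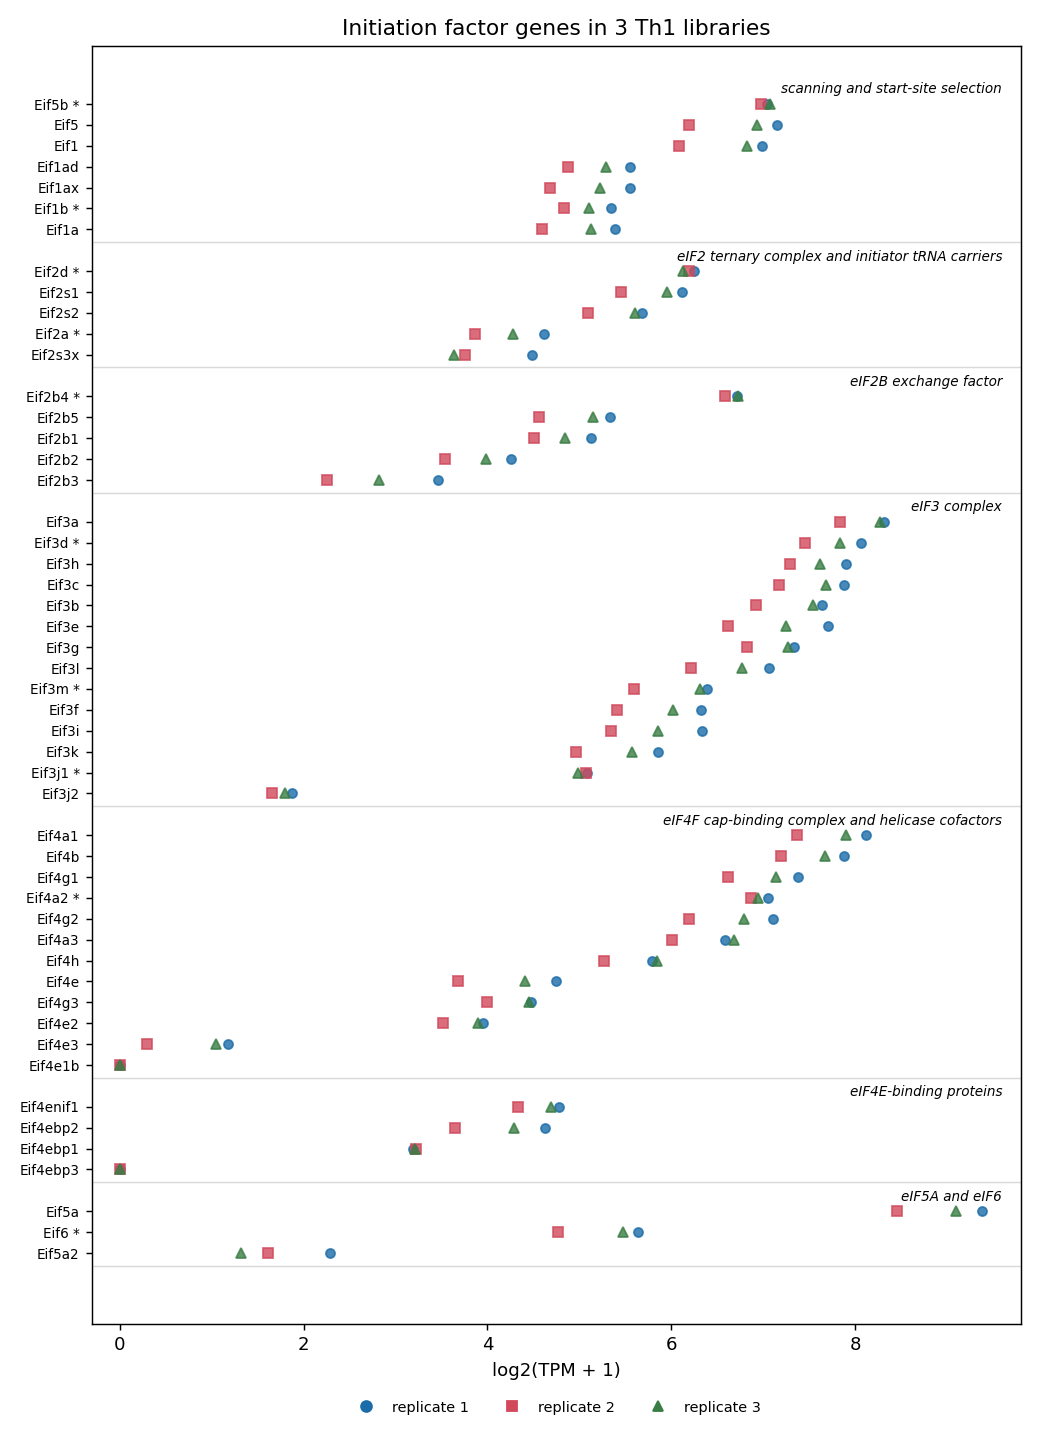
Levels of the 50 initiation factor genes as log2(TPM + 1) in each library, grouped by role and ordered by mean TPM; an asterisk marks genes sharing exon bases with an opposite-strand gene. Eif5a has the highest mean, at 520 ± 158 TPM, and for most genes the square of replicate 2 lies left of the other libraries.

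Genes of the eIF3 complex, the scaffold on the small ribosomal subunit, stood high as a group. All 14 were detected, with a median of 121 ± 31.8 TPM and a sum of 1730 ± 404 TPM. Eif3a, which encodes the largest subunit (chromosome 19, 60761116 to 60790693, mm10), had 317, 227 and 308 TPM. Eif3d, whose product can itself bind the cap, had 267, 174 and 227 TPM, and Eif3h had 238, 156 and 196 TPM. The core subunit genes Eif3c, at 194 ± 46.4 TPM, and Eif3b, at 168 ± 42.3 TPM, came close to each other, and so did Eif3e at 152 ± 55.5 and Eif3g at 142 ± 26.5 TPM. The differences between these neighbours were smaller than the SD between libraries. Within each library, however, Eif3c was above Eif3b, by 0.21 ± 0.06 (log2 TPM ratio, 3 of 3 libraries), while Eif3e was above Eif3g in replicate 1 only. Below them came Eif3l at 105 ± 30, Eif3m at 69.6 ± 19.5, Eif3f at 61.4 ± 18.8, Eif3i at 58.8 ± 20.1 and Eif3k at 44.5 ± 13.4 TPM. Across these 12 subunit genes, which leave out the loosely bound eIF3j, the highest mean was 6.38 times the lowest, although the subunits are thought to be present in equal number in the complex. Exon length counts every annotated transcript of a gene, so a gene with long minor transcripts gets a low TPM.

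The 2 genes of eIF3j, the subunit that comes and goes, stood at the bottom of the list. Eif3j1 had 363, 333 and 335 counts, or 32.8, 32.7 and 30.7 TPM, and Eif3j2 had 12, 9 and 11 counts, or 2.65, 2.16 and 2.47 TPM. The copies are close in sequence, and read pairs that match both would not be assigned with confidence, so the split between them is uncertain. On these counts Eif3j1 was higher by 3.73 ± 0.17 (log2 TPM ratio, 3 of 3 libraries).

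The cap-binding complex eIF4F and its helicase cofactors had 10 of 12 genes detected (median 68.2 ± 15.5 TPM). Eif4a1, the main gene of the helicase subunit eIF4A, had 276, 164 and 238 TPM, and its paralog Eif4a2 had 132, 116 and 122 TPM. Eif4a1 was higher by 0.85 ± 0.30 on the log2 scale, from 0.50 in replicate 2 to 1.07 in replicate 1. Eif4a3, a related helicase of the exon junction complex, had 95.2, 63.3 and 102 TPM. Snora81, Snord2 and other small RNA genes lie on the same strand within 9.63% of the exon bases of Eif4a2, and read pairs that fall on both genes of such an overlap are not assigned by default. Eif4b, a helicase cofactor, had 234, 145 and 203 TPM, and Eif4h, the shorter cofactor, had 54.5, 37.6 and 56.3 TPM.

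The scaffold and cap-binding genes of eIF4F differed more. Eif4g1, the main scaffold, had 166, 96.9 and 140 TPM, Eif4g2, which lacks the eIF4E-binding part, had 137, 71.9 and 110 TPM, and Eif4g3 had 21.3, 15 and 20.9 TPM. Eif4g1 was higher than Eif4g3 by 2.80 ± 0.14 on the log2 TPM scale, but higher than Eif4g2 by only 0.35 ± 0.08, a direction that turned to -0.14 without the length correction. Eif4e, the cap-binding protein itself (chromosome 3, 138526179 to 138559696), had 25.9, 11.8 and 20.2 TPM, and Eif4e2, its repressive relative, had 14.5, 10.4 and 13.9 TPM. The level of Eif4g1 was higher than that of Eif4e by 2.84 ± 0.18 (log2), and Eif4a1 was higher than Eif4g1 by 0.75 ± 0.02 per length. Without the length correction the log2 ratio of Eif4a1 to Eif4g1 was 0.02, with CPM of 640, 422 and 573 for Eif4a1 and 642, 416 and 562 for Eif4g1. Of the remaining cap-binding genes, Eif4e3 was at 0.849 ± 0.547 TPM, and 373 of its exon bases lie in a same-strand gene, Gm20696.

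Of the inhibitors of eIF4E, Eif4ebp2 was near the level of Eif4e and Eif4ebp1 was below it. Eif4ebp2 had 23.7, 11.5 and 18.6 TPM, and Eif4ebp1 had 8.15, 8.33 and 8.28 TPM from 34, 32 and 34 counts. The log2 TPM ratio of Eif4ebp2 to Eif4e was -0.10 ± 0.05, and the 3 inhibitor genes together stood at 1.23, 1.68 and 1.33 times Eif4e. Eif4ebp3 had no count, but 67.3% of its exon bases are shared with Ankhd1 on the same strand, and read pairs there are assigned to neither gene by default. Its 0 counts allow up to 2.12, 2.31 and 2.16 TPM. Eif4enif1, which shuttles eIF4E into the nucleus and into processing bodies, had 26.5, 19.2 and 24.9 TPM.

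MYC, which binds the E-box CACGTG, is known to act on the Eif4e promoter. The upstream sequences shown are those of the cap complex genes Eif4e, Eif4a1 and Eif4g1 and of the eIF3 gene Eif3f, all of which hold this hexamer. RefSeq windows (GRCm38.p6) from 250 bases before to 50 after an annotated start were found for 38 of the 50 genes, as 50 windows. The hexamer CACGTG, which reads the same on both strands, was in a window of 10 of the 38 genes (26.3%), against 8.91% of 17491 protein-coding genes. A match is a run of letters, not a shown binding site. The 250 bases before the start are printed in lower case with CACGTG in capitals, for Eif4e at chr3:138527018-138527267 (plus strand), Eif4a1 at chr11:69672424-69672673 (minus strand), Eif4g1 at chr16:20672477-20672726 (plus strand) and Eif3f at chr7:108934165-108934414 (plus strand).
Eif4e: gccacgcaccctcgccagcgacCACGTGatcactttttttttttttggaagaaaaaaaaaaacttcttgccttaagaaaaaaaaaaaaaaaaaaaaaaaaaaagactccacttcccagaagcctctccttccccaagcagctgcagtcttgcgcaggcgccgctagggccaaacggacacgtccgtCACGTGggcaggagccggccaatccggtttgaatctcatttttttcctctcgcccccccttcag
Eif4a1: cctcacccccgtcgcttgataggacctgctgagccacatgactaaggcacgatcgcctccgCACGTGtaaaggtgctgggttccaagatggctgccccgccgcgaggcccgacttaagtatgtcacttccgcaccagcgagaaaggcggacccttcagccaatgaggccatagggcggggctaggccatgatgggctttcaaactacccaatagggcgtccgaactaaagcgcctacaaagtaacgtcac
Eif4g1: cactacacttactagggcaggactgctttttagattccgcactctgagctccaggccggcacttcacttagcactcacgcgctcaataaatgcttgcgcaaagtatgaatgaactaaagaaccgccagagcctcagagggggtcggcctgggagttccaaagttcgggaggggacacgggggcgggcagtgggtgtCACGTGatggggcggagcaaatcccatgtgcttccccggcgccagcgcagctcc
Eif3f: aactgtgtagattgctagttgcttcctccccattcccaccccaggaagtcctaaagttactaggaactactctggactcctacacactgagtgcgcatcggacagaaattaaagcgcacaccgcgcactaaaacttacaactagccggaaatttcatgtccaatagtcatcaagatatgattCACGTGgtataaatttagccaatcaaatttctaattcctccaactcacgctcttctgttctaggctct
In Eif4e the hexamer begins 228 and 64 bases before the RefSeq start used, in Eif4a1 189, in Eif4g1 54 and in Eif3f 68 bases before it. The starts used for Eif4e and Eif4g1 lie inside the annotated genes. The others with the hexamer were Eif5a, Eif5a2, Eif3a, Eif3k, Eif4h and Eif1b. Cap complex genes with a window but without the hexamer included Eif4a2, Eif4g3 and Eif4e2. The hexamer CCGGAA on either strand, the core of ETS factor sites, was in 20 of the 38 genes (52.6%), against 20.9% of protein-coding genes, and CCAAT on either strand in 13 (34.2%), against 42.3%. The motifs were counted separately, and a window may hold several. The comparison was with protein-coding genes that had a window, detected in these libraries or not. A share over detected genes alone was not computed, and whether the level of a gene plays into these shares was not tested.

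mRNAs of the translation machinery are known for a terminal oligopyrimidine tract, an unbroken run of C and T that begins with C at the first base and puts translation under mTOR control. At the annotated RefSeq starts, a C followed by at least 4 such bases was found in 2 of 38 genes (5.26%), against 2.67% of protein-coding genes. They are Eif3f, at chr7:108934405-108934434 (plus strand), and Eif2s3x, at chrX:94212632-94212661 (minus strand). Windows of 10 bases before and 20 from the start are shown, with the run in capitals.
Eif3f: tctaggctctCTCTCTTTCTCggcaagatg
Eif2s3x: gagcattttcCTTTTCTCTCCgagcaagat
Both runs are 11 bases long. The start used for Eif2s3x lies inside the annotated gene, whose outer end on this strand is at 94212862. Annotated starts can be off by some bases, and a start without such a run says only that the letters are not at that position.

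The genes listed under scanning and start-site selection were all detected (7 of 7, median 37.5 ± 8.9 TPM). Eif5b, the GTPase that joins the ribosomal subunits, had 131, 125 and 134 TPM. Eif5, which triggers GTP hydrolysis by eIF2, had 141, 72 and 121 TPM, and Eif1, which guards the choice of start codon, had 126, 66.8 and 112 TPM. Its paralog Eif1b had 39.7, 27.5 and 33.3 TPM, and Eif1 was higher by 1.57 ± 0.25 (log2). The eIF1A genes, which promote scanning, were nearly equal in TPM: Eif1ax, on the X chromosome, had 45.8, 24.7 and 36.3 TPM and Eif1a had 40.9, 23.2 and 34 TPM. The log2 TPM ratio of Eif1ax to Eif1a was 0.11 ± 0.04. Without the length correction it was 0.98, with 458, 227 and 357 counts for Eif1ax and 224, 117 and 183 for Eif1a. These copies are alike in sequence, so the split is uncertain. Eif1ad, whose level was the median of this list, stood at 37.5 ± 8.9 TPM, and whether it acts in scanning was not tested.

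All 5 genes of eIF2 and the other initiator tRNA carriers were detected (median 43.8 ± 9.28 TPM). Eif2s1, the alpha subunit that the eIF2 kinases phosphorylate, had 68.3, 42.9 and 61.2 TPM, and Eif2s2, the beta subunit, had 50.4, 33.2 and 47.8 TPM. Eif2s3x, the X-linked gene of the gamma subunit, which is known to escape X inactivation in mice, had 21.4, 12.5 and 11.4 TPM from 155, 83 and 81 counts. The log2 TPM ratio of Eif2s2 to Eif2s3x was 1.24, 1.41 and 2.07. Eif2s3x was thus lowest relative to Eif2s2 in replicate 3, the library with the most Eif2s3y counts. In replicate 2, with 1 Eif2s3y count, Eif2s3x was lower relative to Eif2s2 than in replicate 1, with 58. The ratio therefore did not follow the order of the Eif2s3y counts. Whether sex accounts for any of these differences was not tested, and Eif2s3x and Eif2s3y are close copies whose read pairs may be split. Eif2d, which can deliver initiator tRNA without GTP, had 75.2, 72.4 and 68.8 TPM, and Eif2a, a separate factor despite its name, had 23.6, 13.6 and 18.4 TPM.

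The eIF2B genes, the exchange factor that the stress response blocks, were all detected (5 of 5) at a median of 27.8 ± 6.16 TPM. Eif2b4, of the delta subunit, had 104, 95.3 and 105 TPM and stood above the others. Eif2b5, the catalytic epsilon subunit, had 39.2, 22.6 and 34.4 TPM, and Eif2b4 was higher than it by 1.70 ± 0.34 (log2, 3 of 3 libraries). Eif2b1, the alpha subunit that helps the complex sense phosphorylated eIF2, had 34, 21.7 and 27.8 TPM. Eif2b2, the beta subunit, had 18.1, 10.6 and 14.8 TPM, and Eif2b3, the gamma subunit, was lowest at 10, 3.77 and 6.07 TPM from 124, 43 and 74 counts.

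Eif5a had the highest level of all initiation factor genes. Its product, which carries the amino acid hypusine, is now known mainly for helping stalled ribosomes to go on. Eif5a (chromosome 11, 69916714 to 69921958) had 664, 351 and 545 TPM from 2998, 1460 and 2419 counts, and Eif5a2, its paralog, had 3.87, 2.05 and 1.49 TPM from 37, 18 and 14. The log2 ratio between them was 7.79 ± 0.63. Eif6, which keeps the large ribosomal subunit apart until it is ready, had 48.7, 26.2 and 43.6 TPM.

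**Figure D2:**
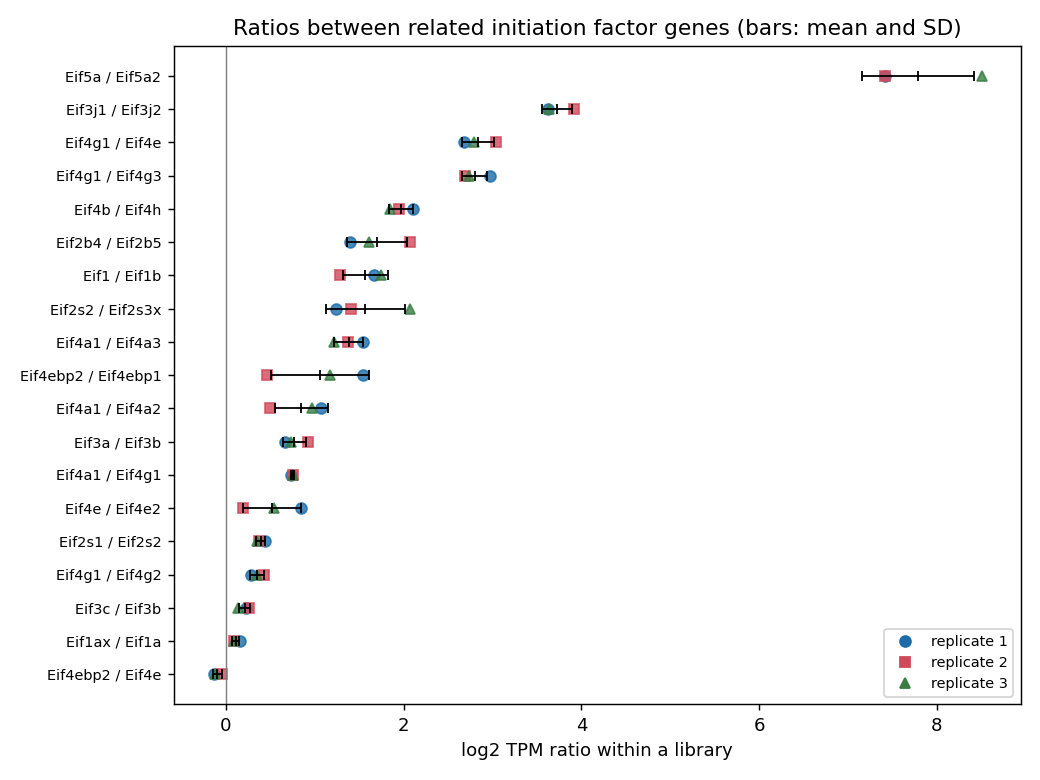
Log2 TPM ratios within each library for 19 pairs of related initiation factor genes, with the mean and SD over 3 libraries as black bars. Eif5a over Eif5a2 is the widest at 7.79 ± 0.63, and Eif4ebp2 over Eif4e lies just below 0.

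In all 19 pairs the TPM ratio had the same sign in 3 of 3 libraries. An exact sign-flip test over 3 libraries cannot go below p = 0.25, so no ratio was tested. Several pairs set an overlapped gene against one that is not (Eif4a1 and Eif4a2, Eif1 and Eif1b, Eif2b4 and Eif2b5, Eif3j1 and Eif3j2), so they compare counts of unlike position.

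Of the 50 genes 10 (20%) were overlapped by an exon of an opposite-strand gene, against 22.1% of protein-coding genes, and these held 24% ± 3.52 of the counts of all initiation factor genes. Their median was 70.9 ± 9.93 TPM, against 43.8 ± 10.8 TPM for the other 40, a log2 ratio of 0.72 ± 0.18. The 40 were mixed: the 17 isolated genes had a median of 101 ± 30.7 TPM, above the overlapped ones, and the 21 near genes had 37.5 ± 8.9 TPM. The log2 ratio of overlapped to other genes was 1.19 where at least 100 shared bases were asked for and 0.35 without the length correction. For these 10, the count on the annotated strand cannot be assigned to the gene alone.

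The partner exceeded the initiation factor gene most at Eif3d. It shares 625 exon bases, 32.7% of its exon length, with the antisense gene Gm17638 (chromosome 15, 77961674 to 77967126), which lies within the span of Eif3d. Eif3d had 968, 581 and 812 counts, and Gm17638 had 19089, 17855 and 17905, which is 19.7, 30.7 and 22.1 times as many. Per kilobase of exon, Eif3d had 412 counts and Gm17638 had 4210 on average. The counts of Gm17638 were far above those of any initiation factor gene, of which Eif3a had the most in replicates 1 and 3, at 3119 and 2975, and Eif5b in replicate 2, at 2136.

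At the other partners the counts were closer or lay mostly on the initiation factor gene. Eif5b shares 1643 bases with Rev1 and had 2433, 2136 and 2445 counts, against 205, 147 and 139 for Rev1. Eif4a2 (1336, 1082 and 1215 counts) shares 194 bases with Rfc4, which had 138, 81 and 129. Eif2d (1054, 933 and 948 counts) shares only 78 bases with Rassf5, at 304, 245 and 225, and Eif2b4 (512, 433 and 510 counts) shares 204 bases with Snx17, at 249, 214 and 247. In these pairs the initiation factor gene had the more counts. Eif3j1 shares 1107 bases with Spg11, which had 289, 328 and 315 counts, near its own. Eif3m (408, 214 and 381 counts) shares 82 bases with Ccdc73, which was higher at 622, 888 and 788. The last were Eif2a with Serp1 (72 bases, 185, 107 and 186 counts on Serp1), Eif1b with D830035M03Rik (143 bases, 8, 12 and 18 counts) and Eif6 with Gm16098 (138 bases, 0, 1 and 0 counts).

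**Figure D3:**
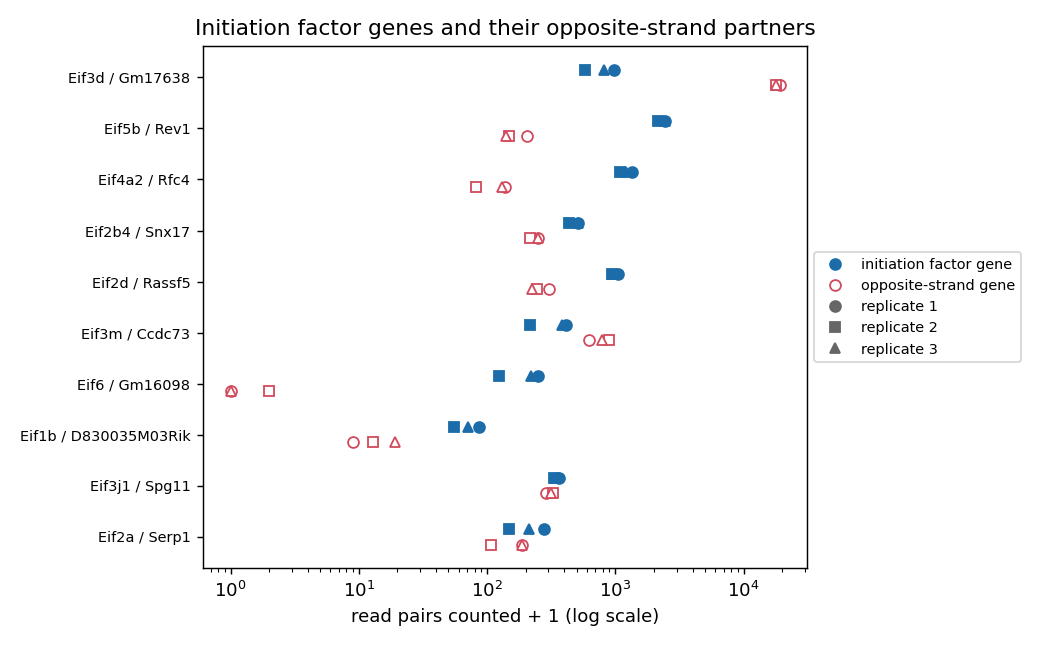
Read pairs counted, plus 1, on a log axis for the 10 overlapped initiation factor genes (filled) and the opposite-strand gene that shares most exon bases with each (open), with a symbol per library. Gm17638 lies far right of Eif3d, while Rev1 and Rfc4 lie left of Eif5b and Eif4a2.

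Between libraries, 24 of the 47 initiation factor genes tested differed by more than counting error (chi-square test with TMM scaling, Benjamini-Hochberg adjusted over 10216 genes), against 35.6% of all genes tested. Of the 47, 18 were called with replicate 2 the lowest in CPM (counts scaled to the library total), against 13.1% of all genes tested. The other 6 called were Eif5b, Eif2d, Eif4a2, Eif3j1, Eif2b4 and Eif2s3x, of which the first 5 are overlapped. By class, 10 of 16 isolated initiation factor genes were called (23.7% of all isolated genes tested) and 8 of 19 near ones (21.1%). Of the overlapped ones 6 of 10 were called (53%), and of the spanned ones 0 of 2 (33.8%). The 13.1% was taken over all classes, and no share was matched by count, on which the power of the test depends. Without replicate 2, 7 genes were called, against 9.04% of all genes tested, and without replicate 1, 14, against 24.4%. With scaling by total counts 36 were called, against 51.7% of all genes tested, 34 of them lowest in replicate 2. Relative to total counts, TMM shifted the libraries by 0.16, -0.22 and 0.07 on the log2 scale.

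The strand classes differed in how replicate 2 stood. As log2 of the CPM in replicate 2 over the mean of replicates 1 and 3, all isolated genes with 10 counts or more in each library (no opposite-strand gene within 5000 bases) had a median of -0.57. Genes with an opposite-strand gene near by had -0.50, and overlapped genes 0.05. Spanned genes, which share no exon bases with an opposite-strand gene, had 0.02 (222 genes, quartiles -0.41 and 0.36). A median close to that of overlapped genes was thus also seen without shared exon bases. The spanned initiation factor genes, Eif2s2 and Eif4enif1, were lower, at -0.44 and -0.30. The 16 isolated initiation factor genes had a median of -0.52. Of the 10 overlapped ones, 5 lay near the overlapped median: Eif3j1 at 0.17, Eif2d at 0.13, Eif5b at 0.04, Eif4a2 at 0.00 and Eif2b4 at -0.01. The other 5 were lower: Eif1b at -0.29, Eif3d at -0.38, Eif2a at -0.49, Eif3m at -0.65 and Eif6 at -0.69. Gm17638, the partner of Eif3d, was at 0.18, and Ccdc73, the partner of Eif3m, at 0.56. Among genes without an overlap, Eif4ebp1 stood alone at 0.14, on few counts. The cause of the split was not tested.

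**Figure D4:**
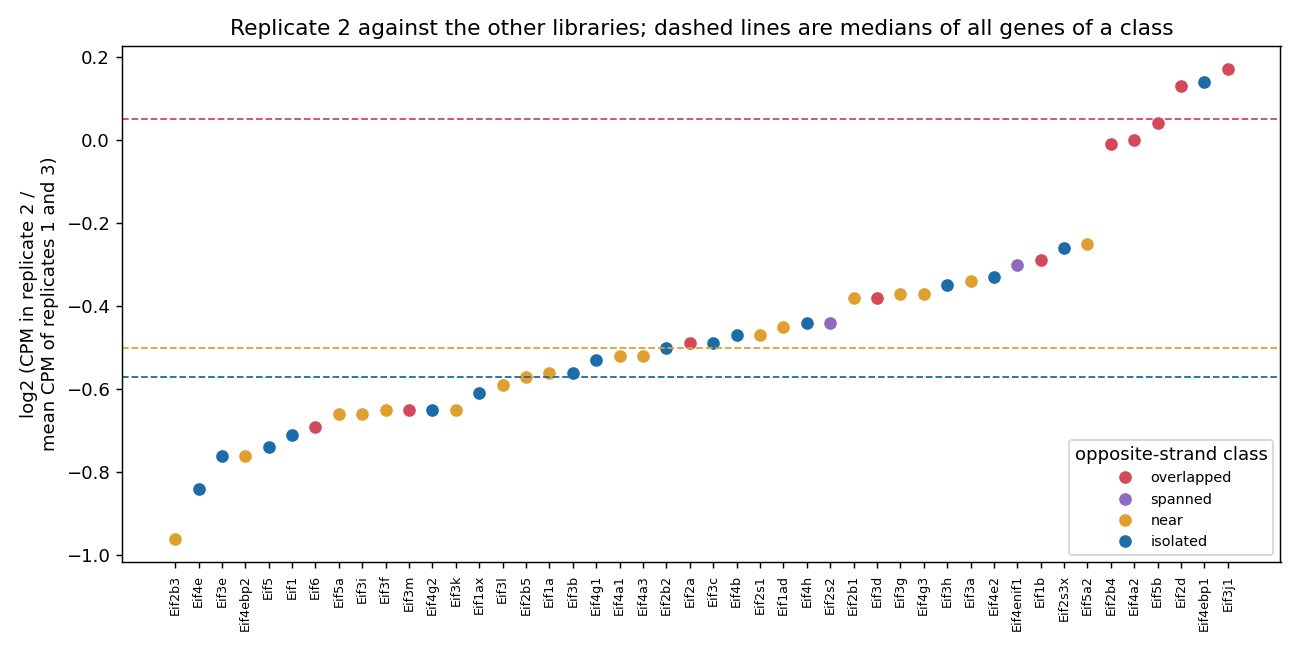
Log2 of the CPM in replicate 2 over the mean CPM of replicates 1 and 3 for the 46 initiation factor genes with 10 counts or more in each library, coloured by opposite-strand class; dashed lines are medians over all genes of the overlapped, near and isolated classes. Of the overlapped genes 5 lie between -0.01 and 0.17, and the other 5 lie at -0.29 or below. The median over all spanned genes, 0.02, is not among the dashed lines.

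With TMM scaling done within each strand class, 13 initiation factor genes were called, against 26.4% of all genes tested, and 7 of them were also called with the overall scaling. Of the 47 tested, 12 were called with replicate 2 lowest by CPM on total counts, against 14.1% of all genes tested. The other called gene, Eif2s3x, had replicate 3 lowest. This direction is by total counts, on which near and isolated genes in general were low in replicate 2, and not by the scaling that made the calls. Set against their class medians, Eif3a (-0.34, near genes -0.50) and Eif4h (-0.44, isolated genes -0.57) were higher in replicate 2 than their class. Eif2s2, a spanned gene, was also called (chi-square test, adjusted p = 8.06e-06), at -0.44 against a median of 0.02 for spanned genes. The overlapped genes called were Eif3d (-0.38), Eif2a (-0.49), Eif3m (-0.65) and Eif6 (-0.69). Their class was mixed, with a median of 0.05 and quartiles of -0.41 and 0.26. These 4 values lay closer to the medians of near and isolated genes than to that of their own class, and the cause was not tested. The 7 shared calls were Eif5a, Eif3e, Eif3i, Eif3m, Eif2b3, Eif2s3x and Eif4a3. Eif5a was called under each of the 8 settings run (chi-square test, adjusted p = 7.71e-15 overall and 0.00249 within classes, between 7.89e-60 and 0.00992 in all). Its CPM was 844, 496 and 718. Eif3e had 610, 262 and 434 counts and was called under 7 of 8 settings (chi-square test, adjusted p = 9.83e-07, range 2.34e-17 to 0.0882, lost without replicate 1), and Eif3i, with 562, 257 and 394 counts, also under 7 (chi-square test, adjusted p = 3.59e-05, range 6.1e-14 to 0.417, lost without replicate 1). Replicate 1 was the highest in both. Eif2s3x was called within classes (chi-square test, adjusted p = 0.00542) and without replicate 2 (adjusted p = 0.00238), and its adjusted p lay between 6.29e-05 and 0.361 in all. Eif4g2 had 2649, 1278 and 2089 counts and was called under 7 of 8 settings, at an adjusted p of 3.3e-14 overall and 0.0744 within classes (chi-square test). Eif5 and Eif4g1, also called overall (chi-square test, adjusted p = 5.95e-07 and 6.83e-05), were not called within classes (0.169 and 0.839). By contrast Eif5b, Eif2d, Eif4a2, Eif3j1 and Eif2b4, with the overall scaling at adjusted p = 1.22e-25, 1.81e-14, 9.24e-09, 5.61e-06 and 0.000342 (chi-square test), were not called within classes, where the values were 0.167, 0.475, 0.464, 0.708 and 0.636. Eif5b was called under 6 of 8 settings and the other 4 under 5 each. Eif3d and Eif3a were called within classes (adjusted p = 6.94e-10 and 6.79e-09) and not overall (0.516 and 0.0667), with Eif3d between 6.94e-10 and 0.962 and Eif3a between 2.68e-17 and 0.331 over all settings (chi-square test).

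Genes that regulate initiation were all detected, in 4 lists from textbook knowledge. The eIF2 kinase and phosphatase adaptor list (6 of 6 detected, 1 of 6 varying between libraries, against 35.6% of all genes tested) was led by Eif2ak1, the heme-regulated kinase, at 3236, 3189 and 3201 counts or 308 ± 11.9 TPM, opposite Aimp2. Ppp1r15b, an adaptor of the eIF2 phosphatase, stood at 19.6 ± 5.35 TPM opposite Gm26616, and Eif2ak3, the kinase of the endoplasmic reticulum, was lowest at 2.03 ± 0.735 TPM. Eif2ak1 is overlapped, and Eif2ak4, the amino acid sensor and the one gene of this list that is not, stood at 5.27 ± 1.29 TPM. In the mTOR and MNK list (13 of 13 detected, 4 of 13 varying) Larp1, the repressor of mRNAs with a pyrimidine tract, stood at 71.9 ± 16.2 TPM, Akt1 at 50.4 ± 14.4 TPM and Tsc1 lowest at 3.03 ± 1.25 TPM.

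The poly(A)-binding list (5 of 5 detected, 3 of 5 varying) held Pabpc1, the main poly(A)-binding protein, at 193 ± 64.4 TPM, Pabpc4 at 50.4 ± 11.6 and Paip2b, an inhibitor of poly(A)-binding protein, lowest at 8.05 ± 3.68 TPM. Of the accessory factors (11 of 11 detected, 6 of 10 tested varying) Bzw2, an eIF5 mimic, stood at 127 ± 39.1 TPM and the helicase gene Ddx3x at 103 ± 33.4 TPM, while Mcts2 had 5, 5 and 2 counts. Within strand classes, 2, 2, 2 and 4 genes of these 4 lists varied, in the order given, against 26.4% of all genes tested.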

How the data were processed

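Each deposited file lists unnormalized read-pair counts for 50600 genes. The counter was featureCounts 1.4.6-p4, run by the authors over GENCODE M13 exons with strand option 1 and both mates required, per the file headers. The build was mm10, per the labels, and the alignment name in the header contains star2. The exon length of each gene is the length column of the deposited files.

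TPM and CPM were computed from these counts. Symbols and gene types came from GENCODE M21 by gene identifier, which left 224 of 50600 without a symbol. A gene was overlapped when an exon shared bases with an opposite-strand exon, spanned when inside an opposite-strand gene's span, near when such a gene lay within 5000 bases, and otherwise isolated. With 1 group, libraries were compared by a chi-square test of counts against Poisson error (2 degrees of freedom) at TMM-scaled sizes, over genes passing edgeR's filterByExpr, Benjamini-Hochberg adjusted, at 0.05. It was also run on simulated counts with Poisson error only, a setting that leaves out any further spread between replicates. Alternatives were DESeq2 size factors, total counts, TMM within strand classes, no filter, other overlap definitions, other detection limits and leaving out each library.

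Named genes were, for each role list, the 3 highest and 2 lowest, all paralogs, all overlapped genes and the 10 with the smallest adjusted p; others are given by level. The gene pairs and the motifs were picked after the levels were seen. The members and lists were chosen with earlier results of these data known. Precision is set by 2945353 to 3553547 counts per library. Software was R 4.3.3, edgeR 4.0.16, DESeq2 1.42.0, Python 3.11.15 and pandas 2.3.3.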

Additional observations from a re-analysis of the deposited data

How the results depend on the processing

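The number of initiation factor genes detected was 44 to 48 under 5 TPM, 10 counts, TMM-scaled FPKM or leaving out a library, beside 47. The median of 47.7 TPM became 26.5 as TMM-scaled FPKM, another unit, and 43.7 to 53.8 without 1 library. The number varying between libraries was 24, and it was 21 with DESeq2 size factors (34.7% of all genes tested), 36 with total counts (51.7%), 26 without a filter (19.3%), 13 with TMM within strand classes (26.4%), and 7 to 23 without 1 library, with 7 without replicate 2 (9.04% of all genes tested) and 14 without replicate 1 (24.4%). The share of counts on overlapped genes was 24%, and it was 18.7% with at least 100 shared bases, 20.4% with protein-coding partners only, and 22% to 25.3% without 1 library. The log2 ratio of overlapped to other genes was 0.72, and it was 1.19, 0.91 and, without length, 0.35, with 0.62 to 0.78 without 1 library. The cause of these changes was not tested.

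Without the length correction 17 of 19 pairs had 1 sign in each library, but for Eif4g1 to Eif4g2 (-0.14) and Eif2s1 to Eif2s2 (-0.06) that sign was opposite to the one in TPM. The libraries differed in sign for Eif4a1 to Eif4g1 (mean 0.02) and Eif4e to Eif4e2 (mean 0.20). Of the 19 ratios, 14 moved by more than their SD without a change in the sign of the mean. Leaving out a library moved none of the 19 by more than its SD. Eif4e3, Eif4e1b and Eif4ebp3 did not pass the count filter. No paired analysis was possible because there is 1 group.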

Other observations

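Processed pseudogenes named after initiation factors took few counts. Those in the files, 7 in all, summed to 16, 10 and 12 counts, and 4 of them had 0 in each library. The most counted, Eif4a-ps4, had 14, 8 and 10 counts. The pseudogene Eif5al3-ps had 0, 2 and 2 counts, at or under what a count of 0 allows, beside 2998, 1460 and 2419 on Eif5a.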
